A study of Mus musculus with 6 samples.

Results

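The 46 genes described here encode innate immune sensors, their adaptors and kinases, inflammasome components, interleukins, and the NF-kB transcription factors with their inhibitors and some of their target genes. They were chosen as a list of gene symbols, and all 46 were found among the 23337 genes counted. Expression was measured by poly(A) RNA sequencing of mouse HSPCs (hematopoietic stem and progenitor cells) that carry MLL-AF9 as transforming oncogene, which arises by gene fusion in acute leukemia. The 3 pro-lymphoid libraries, lymphoid replicates 1, 5 and 6, came from transformed HSPCs kept in pro-lymphoid culture. The 3 pro-myeloid libraries, myeloid replicates 2, 3 and 4, came from transformed HSPCs kept in pro-myeloid culture. Both groups thus carry the oncogene, and no untransformed cells were compared. Separate cultures or animals are not named in the labels for the libraries of a group. P-values therefore cover no more than the spread from library to library, which may be technical. Mouse strain, age and the composition of the media are not stated in the labels.

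Toll-like receptors (TLRs) sense microbial lipids, proteins and nucleic acids at the cell surface or in endosomes, and are best known from monocytes, macrophages, granulocytes and dendritic cells. Most of them signal through the adaptor MyD88, IRAK kinases and the ubiquitin ligase TRAF6 to the IkB kinases, which free NF-kB dimers from inhibitors of the IkB family. NF-kB in turn activates inflammatory genes and several genes of its own subunits and inhibitors, a feedback loop. Inflammasomes are cytosolic complexes in which a sensor and the adaptor ASC activate caspase-1, which cuts the precursors of interleukin (IL)-1 beta and IL-18 into their active forms.

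Values of single libraries are listed in the order of lymphoid replicates 1, 5 and 6 and of myeloid replicates 2, 3 and 4. Levels are given as CPM, the counts of a gene relative to a library size that was scaled by TMM (trimmed mean of M-values), and levels of different genes are compared only per kilobase of exon (RPKM). The libraries held 34972488 to 46724382 counts, at which 3 counts in 1 library correspond to 0.0650 to 0.0888 CPM. Total counts did not differ between the cultures beyond their spread (exact permutation test, two-sided, p = 0.6, where 3 against 3 libraries allow no p below 0.1). In a principal component analysis of all tested genes the first component (80.6% of the variance) separated the cultures. The second (9.72%) set myeloid replicate 2, at 40.38, apart from myeloid replicates 3 and 4, at -25.33 and -13.52. Results that rest on this library are therefore also given without it.

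More innate sensing genes were lower than were higher in pro-lymphoid culture. Of the tested NF-kB genes, 1 of 5 listed as subunits (20%) and 1 of 4 listed as inhibitors (25%) were called. Both were higher, against 17.4% of all tested genes called higher. Of 43 tested genes, 4 were higher in pro-lymphoid culture (Tlr9, Il10, Nfkb1 and Nfkbie) and 12 were lower (Tlr1, Tlr4, Tlr5, Tlr6, Tlr8, Myd88, Irak4, Nod1, Nod2, Nlrp3, Casp4 and Tnfaip2; edgeR quasi-likelihood test, adjusted p under 0.05 over all genes tested). The other 27 had no call, and Tlr3, Il1a and Il6 had too few counts to be tested. Among all 12477 tested genes 38.6% were called, 17.4% as higher and 21.3% as lower. The share called among the 43 genes, 37.2%, was close to that background, with 9.30% higher and 27.9% lower, and whether these shares differ from those of all genes was not tested. The median log2 fold change (pro-lymphoid minus pro-myeloid) of the 43 genes was -0.10, the value of Traf6, against a median of -0.00019 over all tested genes. The values of the cultures did not overlap for 18 of the 43 genes, 6 higher and 12 lower, against 53.5% of all tested genes. All 16 called genes were among these 18, and the other two were Aim2 and Birc3. Of the 16, 14 differed by at least 2-fold, 3 higher and 11 lower. The number of these genes called higher rested on single libraries, being 2 without lymphoid replicate 5 or myeloid replicate 4 and 12 without myeloid replicate 2. The number called lower was 10 to 14 with any one library left out, while over all genes 3086 were called without lymphoid replicate 6, against 4821 with all libraries.

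Markers of myeloid lineages also differed between the cultures. The summed level of 15 neutrophil lineage genes was 185 to 385 CPM in the pro-lymphoid and 4873 to 9442 CPM in the pro-myeloid libraries, with 11 of the 15 called lower. Most of the pro-myeloid sum came from Ctsg, Mpo, Elane and Prtn3, genes of primary granule proteins that are made in immature cells, at means of 1393 to 2076 CPM. Some genes of late neutrophil stages were near 0 in the pro-myeloid libraries, with means of 0.526 CPM for Ltf, 0.235 CPM for Camp and 0.0684 CPM for Mmp9, and with Retnlg at 0 counts. Ngp, S100a8, S100a9 and Cxcr2 of the same list were not near 0 there. They stood at 6.69 ± 5.40, 26.1 ± 26.7, 25.4 ± 31.7 and 27.9 ± 17.2 CPM in pro-myeloid culture (SD, n = 3). For 12 monocyte and macrophage genes the sums were 848 to 1714 CPM in the pro-lymphoid and 1815 to 3194 CPM in the pro-myeloid libraries, with 3 called lower and 0 higher. Without Ly6c2 these sums overlapped, at 726 to 1259 CPM in the pro-lymphoid and 946 to 1831 CPM in the pro-myeloid libraries. Cx3cr1 of the same list was higher in every pro-lymphoid library, at a mean of 273 CPM against 138 CPM in pro-myeloid culture, with no call (edgeR adjusted p = 0.0652) except when myeloid replicate 2 was left out. Conventional dendritic cell genes were at 88.9 to 470 CPM in pro-lymphoid and 15.9 to 63.0 CPM in pro-myeloid libraries, with 5 of 10 called higher (3 without myeloid replicate 4). Most of the pro-lymphoid sum came from Itgax, H2-Aa, H2-Ab1 and H2-Eb1, at means of 31.4 to 137 CPM. These genes were highest in lymphoid replicate 5 and lowest in lymphoid replicate 1. Itgax had 72.7, 195 and 142 CPM and H2-Aa 4.72, 101 and 29.2 CPM in lymphoid replicates 1, 5 and 6. In the same libraries H2-Ab1 had 2.25, 86.9 and 22.0 CPM and H2-Eb1 3.88, 70.6 and 19.8 CPM. Clec9a, which was called higher, and Zbtb46, Batf3, Xcr1 and Cd209a were low, at means of 0.155 to 0.558 CPM in pro-lymphoid culture. Xcr1 and Clec10a had overlapping groups and no call. The sums of 8 plasmacytoid dendritic cell genes overlapped, at 492 to 964 CPM in pro-lymphoid and 505 to 940 CPM in pro-myeloid libraries, but 3 of the 8 were called higher and 1 lower. Siglech was higher at 50.3 ± 43.2 CPM in pro-lymphoid and 0.559 ± 0.664 CPM in pro-myeloid culture (SD, n = 3 each). Spib was higher at 85.6 ± 52.3 CPM in pro-lymphoid and 0.126 ± 0.0415 CPM in pro-myeloid culture, and Bst2 at 119 ± 22.2 CPM in pro-lymphoid and 55.4 ± 9.98 CPM in pro-myeloid culture. Tcf4, which contributed most to the sum in every library, was lower at 320 ± 35.1 CPM in pro-lymphoid and 492 ± 74.6 CPM in pro-myeloid culture, a call that was lost without lymphoid replicate 6. The part of these cell types in the differences described here was not tested. In bulk libraries, fewer cells of a type and less RNA per cell cannot be told apart.

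**Figure D1:**
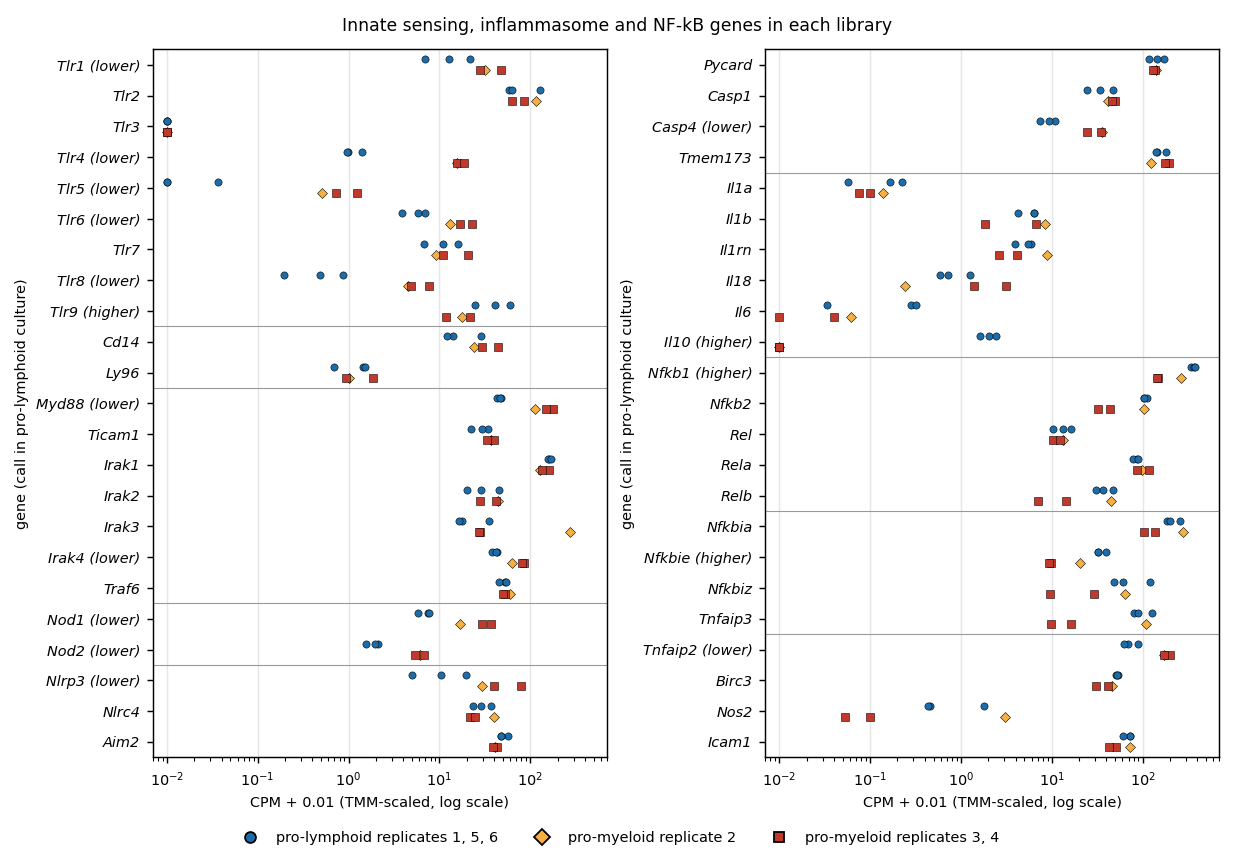
TMM-scaled CPM plus 0.01 (x axis, log scale) of the 46 genes (y axis, grouped by role, with the call in pro-lymphoid culture in brackets) in the 3 pro-lymphoid libraries (circles), myeloid replicate 2 (diamonds) and myeloid replicates 3 and 4 (squares). Most called sensors lie to the left in pro-lymphoid culture (Tlr4 at a mean of 1.11 CPM in pro-lymphoid against 16.6 CPM in pro-myeloid culture), and the diamonds of Nfkb2, Relb, Nfkbiz and Tnfaip3 lie with the circles.

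The surface TLRs were lower in pro-lymphoid culture with the exception of Tlr2, and the endosomal TLRs went different ways. Of the 8 tested TLR genes among the 46, 5 were lower, Tlr9 was higher, and Tlr2 and Tlr7 had no call. Tlr4, which encodes the receptor of bacterial lipopolysaccharide (LPS), had 0.977, 1.41 and 0.954 CPM in lymphoid replicates 1, 5 and 6, against 15.5, 15.8 and 18.4 CPM in myeloid replicates 2, 3 and 4. The 2 cultures were far apart at this gene, and each group was narrow. The level was 14.9-fold lower in pro-lymphoid culture (log2 fold change -3.90 ± 0.24, SE, edgeR adjusted p = 4.62e-05; located on chromosome 4 of mm10 at 66827811 to 66842796). Tlr5, which encodes the flagellin receptor, had 1 count over the pro-lymphoid libraries, in lymphoid replicate 5, against 94 counts over the pro-myeloid libraries, where it stood at 0.495, 1.24 and 0.715 CPM in myeloid replicates 2, 3 and 4. The pro-myeloid to pro-lymphoid ratio was 93.8, with an exact 95% counting interval of 16.4 to 3745 (edgeR adjusted p = 0.00429), and a filter of 1 CPM in 3 libraries removes this gene.

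Tlr1 and Tlr6 encode the partners with which TLR2 binds bacterial lipopeptides. Tlr6 had 6.86, 5.83 and 3.89 CPM in pro-lymphoid, against 13.1, 22.8 and 16.8 CPM in pro-myeloid libraries, and no pro-lymphoid library reached the lowest pro-myeloid one (log2 fold change -1.67 ± 0.30, SE, edgeR adjusted p = 0.00451). Tlr1 had 21.8, 12.9 and 6.86 CPM in pro-lymphoid, against 31.6, 47.4 and 28.2 CPM in pro-myeloid libraries (log2 fold change -1.37 ± 0.41, SE, edgeR adjusted p = 0.0331). Its pro-lymphoid values spread over more than 3-fold, and no call was made when lymphoid replicate 5 or 6 or myeloid replicate 3 or 4 was left out (edgeR adjusted p = 0.0921, 0.0663, 0.0963 and 0.0523). Tlr2 itself had 128, 58.01 and 63.6 CPM in pro-lymphoid, against 117, 84.5 and 63.3 CPM in pro-myeloid libraries, with overlapping groups (log2 fold change -0.084 ± 0.34, SE, edgeR adjusted p = 0.864). The partners thus were lower and the shared chain had no call, and a difference between these genes in their response was not tested.

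Among the endosomal receptors of nucleic acids, Tlr8 had 0.868, 0.471 and 0.186 CPM in pro-lymphoid, against 4.53, 7.58 and 4.83 CPM in pro-myeloid libraries. It was 11.3-fold lower in pro-lymphoid culture (log2 fold change -3.50 ± 0.47, SE, edgeR adjusted p = 0.00139), and without lymphoid replicate 1 the log2 fold change was -4.11. Tlr9, which encodes the receptor of unmethylated CpG DNA, was the only one called higher of the 8 tested TLR genes among the 46. The TLR gene Tlr12, which is in a pathway list below and not among the 46, was called higher too. It had 60.4, 40.9 and 24.4 CPM in pro-lymphoid, against 17.6, 21.4 and 11.8 CPM in pro-myeloid libraries, so that the lowest pro-lymphoid library lay just above the highest pro-myeloid one (log2 fold change 1.31 ± 0.36, SE, edgeR adjusted p = 0.0242; located on chromosome 9 of mm10 at 106222598 to 106226876). Of the plasmacytoid dendritic cell markers, Siglech, Spib and Bst2 were also called higher in the pro-lymphoid libraries, and Tcf4 was called lower. Irf7 of that list was lower in every pro-lymphoid library, with no call in the fit of all libraries. In lymphoid replicates 1, 5 and 6, Siglech had 6.78, 93.2 and 51.1 CPM, and Spib had 54.2, 146 and 56.5 CPM. The part of these markers in the Tlr9 result was not tested. The Tlr9 call needed lymphoid replicates 1 and 5 and myeloid replicate 4, and leaving out one of them ended it (edgeR adjusted p = 0.0645, 0.0555 and 0.0763). Tlr7, the single-stranded RNA receptor gene, had 10.8, 15.9 and 6.79 CPM in pro-lymphoid, against 9.25, 20.7 and 10.97 CPM in pro-myeloid libraries, with overlapping groups (log2 fold change -0.29 ± 0.40, SE, edgeR adjusted p = 0.602). Tlr3, the double-stranded RNA receptor gene, had 0 counts in all 6 libraries.

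Per kilobase, the order of the TLR genes differed between the cultures. In pro-lymphoid culture Tlr2 (29.1 ± 13.6 RPKM) and Tlr9 (12.1 ± 5.18) stood above Tlr1 (5.40 ± 2.93), Tlr7 (2.98 ± 1.21) and Tlr6 (2.13 ± 0.581), and Tlr4 (0.290 ± 0.0672) and Tlr8 (0.161 ± 0.108) were low (mean RPKM ± SD, n = 3). From Tlr2 down to Tlr6 this order held in each of the 3 pro-lymphoid libraries, although the SDs of neighbours in it overlap. In pro-myeloid culture Tlr2 (30.9 ± 9.40 RPKM) was followed by Tlr1 (13.9 ± 3.996), and then by Tlr6 (6.75 ± 1.89), Tlr9 (4.87 ± 1.40), Tlr4 (4.31 ± 0.418) and Tlr7 (3.64 ± 1.65), of which neighbours in this order have overlapping SDs, with Tlr8 at 1.79 ± 0.532. Tlr2 thus had the highest level of the TLR genes in both cultures.

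Both co-receptor genes of LPS sensing had no call. Cd14, whose product hands LPS to TLR4, had 28.6, 14.2 and 12.1 CPM in pro-lymphoid, against 24.04, 44.3 and 29.3 CPM in pro-myeloid libraries (log2 fold change -0.83 ± 0.37, SE, edgeR adjusted p = 0.115). The groups overlapped through lymphoid replicate 1, and without that library Cd14 was called lower (log2 fold change -1.31, edgeR adjusted p = 0.0192). Ly96, which encodes MD-2, the protein that binds LPS on TLR4, had 1.44, 1.52 and 0.675 CPM in pro-lymphoid, against 0.990, 1.84 and 0.932 CPM in pro-myeloid libraries (log2 fold change -0.036 ± 0.43, SE, edgeR adjusted p = 0.954). Its level was low in both cultures, and the sign of this small difference changed with upper-quartile scaling (0.0095) and with no scaling factors (0.012).

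Among the adaptors and kinases, Myd88 and Irak4, which form the first steps of MyD88 signalling, were lower in pro-lymphoid culture, and the other 5 genes had no call. Myd88 had 42.8, 47.4 and 46.9 CPM in pro-lymphoid, against 113, 178 and 148 CPM in pro-myeloid libraries. The pro-lymphoid values lay within 5 CPM of each other, and the level was 3.20-fold lower (log2 fold change -1.68 ± 0.17, SE, edgeR adjusted p = 0.000468; located on chromosome 9 of mm10 at 119335988 to 119340040). Irak4, which encodes the kinase recruited by MyD88, had 43.02, 37.9 and 41.4 CPM in pro-lymphoid, against 62.8, 85.3 and 80.7 CPM in pro-myeloid libraries. The groups did not overlap, and the level was 1.87-fold lower (log2 fold change -0.90 ± 0.15, SE, edgeR adjusted p = 0.00296). Ticam1 (the adaptor TRIF of TLR3 and TLR4), Irak1, Irak2 and Traf6 had log2 fold changes of -0.35 to 0.20 with overlapping groups.

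Irak3 encodes IRAK-M, an inhibitor of MyD88 signalling in monocytes and macrophages. It had 35.05, 17.7 and 16.6 CPM in lymphoid replicates 1, 5 and 6, against 271, 28.2 and 27.1 CPM in myeloid replicates 2, 3 and 4. A single library was high, 9.80-fold above the mean of the other pro-myeloid libraries. With it the log2 fold change was -2.24 ± 0.92 (SE, edgeR adjusted p = 0.0921), and without it -0.26 ± 0.33 (edgeR adjusted p = 0.553).

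Both NOD receptor genes, whose products sense fragments of bacterial peptidoglycan in the cytosol, were lower in pro-lymphoid culture. Nod1 had 7.43, 5.78 and 7.63 CPM in pro-lymphoid, against 16.7, 37.1 and 29.1 CPM in pro-myeloid libraries and was 3.98-fold lower (log2 fold change -1.99 ± 0.31, SE, edgeR adjusted p = 0.00255). Nod2 had 2.09, 1.94 and 1.56 CPM in pro-lymphoid, against 6.12, 6.81 and 5.38 CPM in pro-myeloid libraries and was 3.28-fold lower (log2 fold change -1.71 ± 0.24, SE, edgeR adjusted p = 0.00165). For either gene the groups did not overlap, and the call held in all the settings and left-out libraries that were tried.

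Of 7 inflammasome and DNA sensing genes, Nlrp3 and Casp4 were lower in pro-lymphoid culture, and the sensors Nlrc4 and Aim2, the adaptor Pycard (ASC), Casp1 and Tmem173 had no call. Nlrp3, which encodes the sensor of the best-known inflammasome, had 19.6, 10.4 and 4.98 CPM in pro-lymphoid, against 29.7, 80.1 and 39.7 CPM in pro-myeloid libraries. The spread within each group was wide, but no pro-lymphoid library reached a pro-myeloid one (log2 fold change -2.10 ± 0.54, SE, edgeR adjusted p = 0.0202; located on chromosome 11 of mm10 at 59542686 to 59566956). Leaving out lymphoid replicate 5, lymphoid replicate 6 or myeloid replicate 3 ended this call (edgeR adjusted p = 0.0647, 0.0517 and 0.0569), and the log2 fold change was -2.70 without lymphoid replicate 1. Casp4 encodes caspase-11 in the mouse, the caspase that is activated by LPS in the cytosol. It had 10.9, 7.48 and 9.28 CPM in pro-lymphoid, against 35.7, 34.4 and 24.5 CPM in pro-myeloid libraries and was 3.42-fold lower (log2 fold change -1.78 ± 0.22, SE, edgeR adjusted p = 0.000962; located on chromosome 9 of mm10 at 5308860 to 5336791).

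Casp1, the neighbour of Casp4 on chromosome 9, had 47.1, 24.1 and 33.6 CPM in pro-lymphoid, against 41.9, 49.9 and 45.5 CPM in pro-myeloid libraries (log2 fold change -0.39 ± 0.24, SE, edgeR adjusted p = 0.227). The groups overlapped through lymphoid replicate 1, and without it Casp1 was called lower (log2 fold change -0.66, edgeR adjusted p = 0.0398). Pycard stood at 145 ± 26.7 CPM in pro-lymphoid and 135 ± 4.01 CPM in pro-myeloid culture (SD, n = 3 each; log2 fold change 0.10 ± 0.15, SE, edgeR adjusted p = 0.632). Tmem173, which encodes STING, the adaptor of cytosolic DNA sensing, had 145, 179 and 142 CPM in pro-lymphoid, against 124, 197 and 178 CPM in pro-myeloid libraries (log2 fold change -0.10 ± 0.19, SE, edgeR adjusted p = 0.711). Its groups overlapped, with myeloid replicate 2 lowest of all 6. The DNA sensor gene Aim2 was slightly higher in every pro-lymphoid library, with 47.1 to 57.6 CPM against 39.0 to 42.8 CPM in pro-myeloid libraries, without a call (log2 fold change 0.30 ± 0.13, SE, edgeR adjusted p = 0.102). Nlrc4, whose product assembles an inflammasome on flagellin, had overlapping groups at 29.8 ± 6.81 CPM in pro-lymphoid and 28.8 ± 9.71 CPM in pro-myeloid culture (SD, n = 3 each). Per kilobase, Pycard and Tmem173 stood above Nlrp3 in both cultures, with means of 67.8 ± 12.5, 67.6 ± 8.86 and 2.90 ± 1.84 RPKM for Pycard, Tmem173 and Nlrp3 in pro-lymphoid culture, and of 63.4 ± 1.88, 72.3 ± 16.6 and 12.4 ± 6.63 RPKM for the same genes in pro-myeloid culture (SD, n = 3).

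Among the interleukins Il10, which encodes an anti-inflammatory cytokine, was found only in the pro-lymphoid libraries at this depth. It had 2.01, 2.43 and 1.63 CPM in lymphoid replicates 1, 5 and 6, against 0 counts in each pro-myeloid library. With 237 counts in pro-lymphoid against 0 in pro-myeloid culture, and a floor of 3 counts over the group, it was at least 79-fold higher by its counts (edgeR adjusted p = 0.00135; located on chromosome 1 of mm10 at 131019845 to 131024970). Il6, a pro-inflammatory cytokine gene, had 23 counts over the pro-lymphoid libraries against 3 in pro-myeloid culture, a ratio of 7.68 with an exact 95% counting interval of 2.32 to 40.0. Its 23 counts lay mainly in lymphoid replicates 1 and 5 (0.271, 0.314 and 0.0233 CPM in lymphoid replicates 1, 5 and 6, against 0.0521, 0.0296 and 0 CPM in myeloid replicates 2, 3 and 4). Il6 was too low for the main test, and was called higher without lymphoid replicate 6 (edgeR adjusted p = 0.0262) but not when tested with no filter (edgeR adjusted p = 0.0782).

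The tested genes of the IL-1 branch had no call. Il1b, which encodes IL-1 beta, had 6.40, 6.43 and 4.28 CPM in pro-lymphoid, against 8.46, 6.72 and 1.84 CPM in pro-myeloid libraries (log2 fold change 0.02 ± 0.50, SE, edgeR adjusted p = 0.978). Il1rn, which encodes the IL-1 receptor antagonist, had 5.94, 3.90 and 5.52 CPM in pro-lymphoid, against 8.78, 2.64 and 4.18 CPM in pro-myeloid libraries (log2 fold change -0.026 ± 0.43, SE, edgeR adjusted p = 0.968). Both stood highest in myeloid replicate 2, and the sign of the Il1rn difference changed with upper-quartile scaling (0.032), with no scaling factors (0.012), with limma-voom (0.12) and without that library (0.56). Il18 was low, at 0.845 ± 0.354 CPM in pro-lymphoid and 1.58 ± 1.45 CPM in pro-myeloid culture (SD, n = 3 each), with 0.234 CPM in myeloid replicate 2 against 3.11 and 1.39 CPM in the other pro-myeloid libraries. Il1a had 16 counts in pro-lymphoid against 11 in pro-myeloid culture. Its exons overlap those of the antisense gene Gm14023, from which reads counted without strand cannot be told apart.

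**Figure D2:**
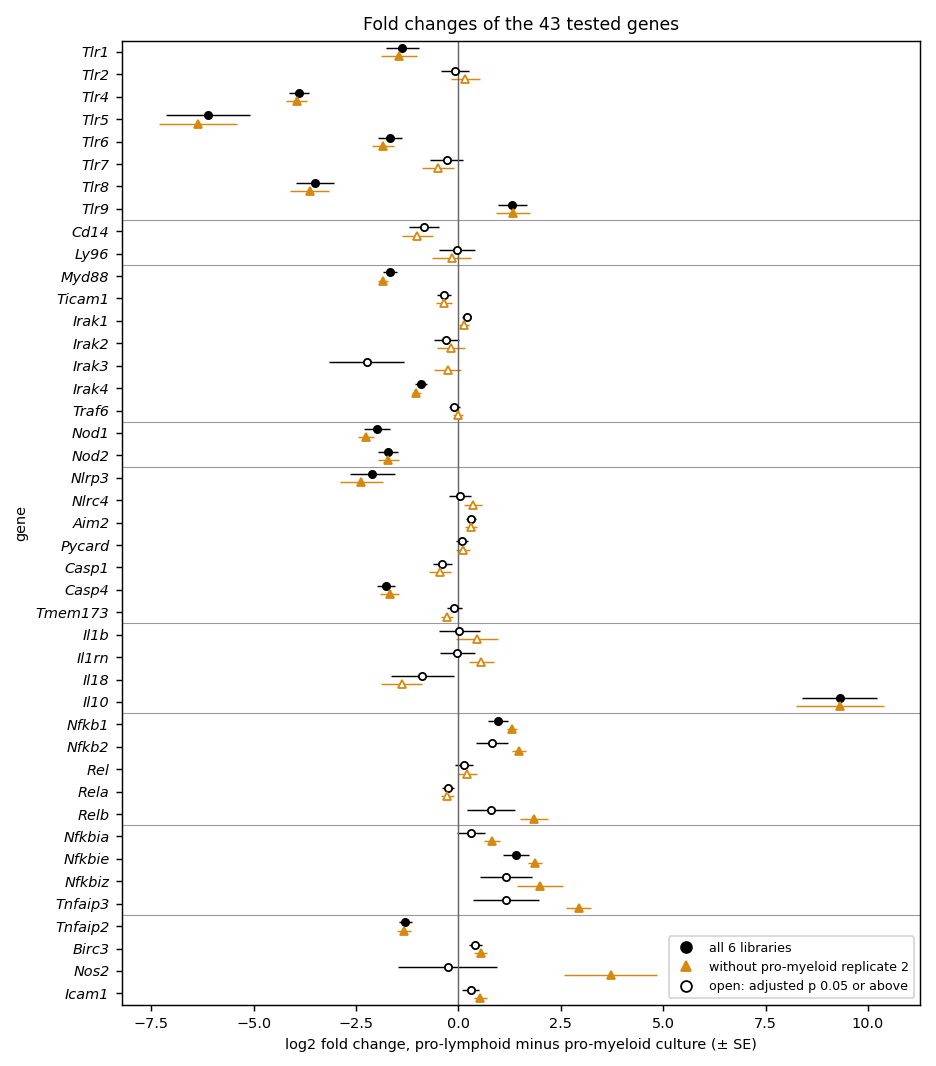
Log2 fold changes (x axis, pro-lymphoid minus pro-myeloid culture, with SE) of the 43 tested genes (y axis, grouped by role) with all 6 libraries (circles) and without myeloid replicate 2 (triangles), filled where the edgeR adjusted p was under 0.05. Fitted values of Il10, with 0 pro-myeloid counts, are no measured fold. Tnfaip3 shifts to 2.94 and Irak3 to -0.26 without that library, while Tlr4 is at -3.90 and -3.95.

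Of the 5 NF-kB subunit genes only Nfkb1 was called, as higher in pro-lymphoid culture. Nfkb1, which encodes p105, the precursor of p50, had 342, 371 and 376 CPM in lymphoid replicates 1, 5 and 6, against 267, 149 and 143 CPM in myeloid replicates 2, 3 and 4. All pro-lymphoid libraries lay above all pro-myeloid ones, with myeloid replicate 2 between the 2 sets of values (log2 fold change 0.96 ± 0.24, SE, edgeR adjusted p = 0.018; located on chromosome 3 of mm10 at 135584655 to 135691547). Leaving out lymphoid replicate 5 or 6, or myeloid replicate 3 or 4, ended this call (edgeR adjusted p = 0.0502, 0.0599, 0.0553 and 0.0635). Rela, which encodes p65, the main activating subunit of the canonical pathway, had 85.9, 78.6 and 89.1 CPM in pro-lymphoid, against 98.03, 118 and 86.4 CPM in pro-myeloid libraries (log2 fold change -0.25 ± 0.14, SE, edgeR adjusted p = 0.187). Rel, which encodes c-Rel, stood at 13.2 ± 2.88 CPM in pro-lymphoid and 11.99 ± 1.48 CPM in pro-myeloid culture (SD, n = 3 each).

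Nfkb2 and Relb encode p100 and RelB, the subunits of the alternative NF-kB pathway. Nfkb2 had 104, 112 and 103 CPM in lymphoid replicates 1, 5 and 6, against 103, 43.9 and 32.2 CPM in myeloid replicates 2, 3 and 4. Myeloid replicate 2 was at the pro-lymphoid level, and the other pro-myeloid libraries were well below it (log2 fold change 0.83 ± 0.39, SE, edgeR adjusted p = 0.135). Relb had 30.9, 46.8 and 36.3 CPM in lymphoid replicates 1, 5 and 6, against 44.6, 14.3 and 6.96 CPM in myeloid replicates 2, 3 and 4, with the same split (log2 fold change 0.79 ± 0.59, SE, edgeR adjusted p = 0.324). Per kilobase Nfkb1 stood highest of the subunits in pro-lymphoid culture, and in pro-myeloid culture it did not differ from Rela beyond their spread. Nfkb1 was at 88.1 ± 4.45 RPKM in pro-lymphoid and 45.3 ± 16.9 RPKM in pro-myeloid culture (SD, n = 3). Rela stood at 31.2 ± 1.99 RPKM in pro-lymphoid and 37.1 ± 5.81 RPKM in pro-myeloid culture, and Rel at 5.10 ± 1.11 RPKM in pro-lymphoid and 4.64 ± 0.572 RPKM in pro-myeloid culture. Over myeloid replicates 3 and 4 alone, Nfkb1 averaged 35.5 RPKM and Rela 37.6 RPKM.

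Of the 4 genes listed as inhibitors of NF-kB, Nfkbie was called, as higher in pro-lymphoid culture. Whether each product, such as the nuclear one of Nfkbiz, inhibits NF-kB in these cells was not tested. Nfkbie, which encodes IkB epsilon, had 32.5, 39.3 and 32.6 CPM in lymphoid replicates 1, 5 and 6, against 20.4, 9.77 and 9.37 CPM in myeloid replicates 2, 3 and 4. It was 2.64-fold higher (log2 fold change 1.40 ± 0.31, SE, edgeR adjusted p = 0.0112; located on chromosome 17 of mm10 at 45555716 to 45563168). Nfkbia, which encodes IkB alpha, the inhibitor that is resynthesised fastest after NF-kB activation, had 186, 257 and 201 CPM in lymphoid replicates 1, 5 and 6, against 280.3, 138 and 103 CPM in myeloid replicates 2, 3 and 4 (log2 fold change 0.30 ± 0.35, SE, edgeR adjusted p = 0.523). Its highest library was myeloid replicate 2, above all pro-lymphoid ones. Tnfaip3, which encodes A20, an enzyme that edits ubiquitin chains and ends NF-kB signalling, had 128, 80.5 and 88.9 CPM in lymphoid replicates 1, 5 and 6, against 108, 16.2 and 9.69 CPM in myeloid replicates 2, 3 and 4 (log2 fold change 1.15 ± 0.81, SE, edgeR adjusted p = 0.294). Nfkbiz, which encodes the nuclear IkB zeta, had 121, 61.3 and 48.4 CPM in lymphoid replicates 1, 5 and 6, against 63.6, 29.5 and 9.47 CPM in myeloid replicates 2, 3 and 4 (log2 fold change 1.17 ± 0.64, SE, edgeR adjusted p = 0.185). In both genes myeloid replicate 2 lay within the pro-lymphoid range, and the other pro-myeloid libraries lay below it.

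Of the 4 other target genes, Tnfaip2 was lower in pro-lymphoid culture. It had 69.8, 88.7 and 62.3 CPM in pro-lymphoid, against 172, 199 and 169.8 CPM in pro-myeloid libraries (log2 fold change -1.29 ± 0.16, SE, edgeR adjusted p = 0.000845). Birc3, which encodes the ubiquitin ligase cIAP2, was slightly higher in every pro-lymphoid library, at 52.3 ± 1.31 CPM in pro-lymphoid and 39.2 ± 7.96 CPM in pro-myeloid culture (SD, n = 3 each). It had no call (log2 fold change 0.41 ± 0.17, SE, edgeR adjusted p = 0.0845), but was called with upper-quartile scaling (edgeR adjusted p = 0.0488). Icam1, an adhesion molecule gene, stood at 68.4 ± 6.77 CPM in pro-lymphoid and 55.7 ± 15.5 CPM in pro-myeloid culture (SD, n = 3 each; log2 fold change 0.30 ± 0.20, SE, edgeR adjusted p = 0.282). Nos2, which encodes inducible nitric oxide synthase, had 1.79, 0.445 and 0.419 CPM in lymphoid replicates 1, 5 and 6, against 3.02, 0.0888 and 0.0434 CPM in myeloid replicates 2, 3 and 4. Its highest value was in myeloid replicate 2 and its 2 lowest were in the other pro-myeloid libraries, so that its log2 fold change was -0.26 ± 1.21 with a large SE (edgeR adjusted p = 0.882). That sign changed with limma-voom (1.48).

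Myeloid replicate 2 stood apart from the other pro-myeloid libraries in a group of these genes. A library was taken as apart where its CPM was at least 2-fold above or at least 2-fold below both other libraries of its culture, a rule made after the values were seen. By this rule myeloid replicate 2 was above for 9 of the 43 genes (Irak3, Il1rn, Nfkb2, Relb, Nfkbia, Nfkbie, Nfkbiz, Tnfaip3 and Nos2), against 3.62% of all tested genes, and below for Il18, against 4.74%. In lymphoid replicate 1, the library with the next highest number of genes above, 3 of the 43 genes were above (Tlr2, Cd14 and Nos2), against 2.41% of all tested genes. Of the 9 genes, Tnfaip3 stood 8.31-fold, Relb 4.20-fold, Nfkbiz 3.27-fold and Nfkb2 2.72-fold above the mean of myeloid replicates 3 and 4. Rela and Rel, at 0.962 and 1.18 times that mean, did not share this. Myeloid replicate 2 held 38199484 counts, within the range of the other libraries, but it also differed in its markers. It had the lowest sums of the pro-myeloid libraries for neutrophil lineage genes (4873 against 6867 and 9442 CPM in myeloid replicates 3 and 4), monocyte and macrophage genes (1815 against 3194 and 2294 CPM), conventional dendritic genes (15.9 against 63.0 and 35.4 CPM) and plasmacytoid dendritic genes (505 against 940 and 638 CPM). Single genes weighed heavily in these sums. They included Ccr2 (69.9 against 975 and 561 CPM), Itgax (5.18 against 51.1 and 26.2 CPM) and Cox6a2 (2.27 against 287 and 133 CPM). Of the monocyte and macrophage genes, Csf1r (579 against 536 and 251 CPM) and Cx3cr1 (189 against 143 and 81.2 CPM) were highest in myeloid replicate 2. The sum of 8 HSPC genes was highest in myeloid replicate 2, at 1748 against 1583 and 1546 CPM. Gata2 (146 against 33.2 and 40.9 CPM), Myb (690 against 635 and 581 CPM), Cd34 and Hoxa9 were highest there. Kit (18.9 against 13.3 and 42.6 CPM), Cd48, Ptprc and Meis1 were not. The neutrophil lineage genes were not evenly lower in myeloid replicate 2. Mpo stood at 0.0616 and S100a9 at 0.00893 times the mean of the other pro-myeloid libraries. S100a8 (0.111), Ngp (0.0726) and Cxcr2 (0.215) were low as well. Elane, Ctsg, Gfi1 and Cebpe stood at 0.953, 0.883, 0.941 and 1.24 times that mean. Mpo weighed most in the lower sum, with 148 CPM against 1512 and 3305 CPM in myeloid replicates 3 and 4. The part of these differences in the values of the 9 genes was not tested.

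Without myeloid replicate 2, 12 of the 43 genes were higher and 12 were lower in pro-lymphoid culture, against 19.4% and 22.8% of 12756 tested genes, with 2 pro-myeloid libraries left. The 16 calls made with all libraries were kept, and Nfkb2, Relb, Nfkbia, Nfkbiz, Tnfaip3, Birc3, Nos2 and Icam1 were added as higher. Tnfaip3 then had a log2 fold change of 2.94 ± 0.31 (SE, edgeR adjusted p = 0.00054), Nfkb2 of 1.48 ± 0.16 (edgeR adjusted p = 0.000646) and Nfkbie of 1.86 ± 0.17 (edgeR adjusted p = 0.000315). Relb had 1.85 ± 0.34 (edgeR adjusted p = 0.00521), Nfkbiz 1.99 ± 0.57 (edgeR adjusted p = 0.0289) and Nfkbia 0.83 ± 0.19 (edgeR adjusted p = 0.0139). Nos2 had 3.72 ± 1.14 (edgeR adjusted p = 0.0329), from 3 and 2 counts in myeloid replicates 3 and 4. Birc3 had 0.55 ± 0.16 (edgeR adjusted p = 0.0304) and Icam1 0.54 ± 0.15 (edgeR adjusted p = 0.0255). The values of these genes thus depend on 1 of 3 pro-myeloid libraries, whereas all 12 genes called lower kept their calls without it.

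**Figure D3:**
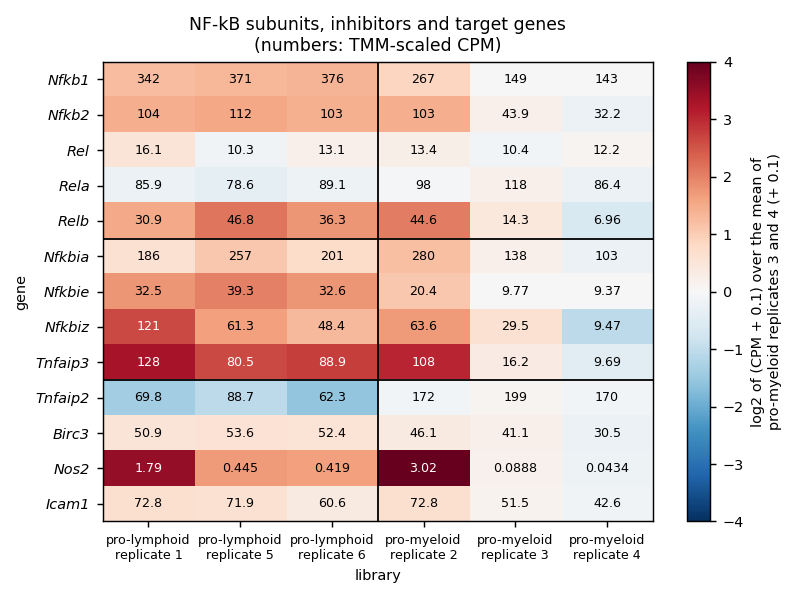
TMM-scaled CPM (numbers) of the NF-kB subunit, inhibitor and target genes (y axis, separated by horizontal lines) in each library (x axis, pro-lymphoid left of the vertical line), coloured by the log2 ratio of CPM plus 0.1 to the mean of myeloid replicates 3 and 4 plus 0.1. Myeloid replicate 2 is coloured like the pro-lymphoid libraries for Nfkb2, Relb, Nfkbiz and Tnfaip3 (108 CPM) and unlike them for Tnfaip2 (172 CPM).

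The promoters of these genes were searched for the kappa-B consensus, the DNA letters that NF-kB dimers bind. RefSeq sequences (GRCm38.p6, the build of mm10) from 250 bases before to 50 bases after the start site were at hand for 36 of the 46 genes, and those of Cd14, Il10, Ly96, Nfkb1, Nfkbiz, Nos2, Relb, Tlr4, Tlr7 and Tmem173 were not used here. A match on either strand was present in 10 of the 36 genes (27.8%; Casp4, Il6, Nfkb2, Nfkbia, Nfkbie, Nlrp3, Rel, Tlr2, Tlr3 and Tnfaip3), against 5.14% of 27025 genes. The list holds NF-kB target genes and genes of NF-kB subunits and inhibitors by choice. A higher share of matches than over all genes is therefore no independent result. In all, 7 patterns were searched. The others were the AP-1 site TGACTCA (6 of 36 genes, 16.7%, against 5.95%), the PU.1/ETS type GAGGAAGT (5 of 36, 13.9%, against 3.69%), and an interferon-response type, given by name only (2 of 36, 5.56%, against 3.99%). The remaining 3 were exact kappa-B forms, which are special cases of the consensus, found in 1, 0 and 1 of the 36 genes against 0.174%, 0.0333% and 0.107% of all. Of the 10 genes with a kappa-B match, Nfkbie was higher, Casp4 and Nlrp3 were lower, and the rest had no call or were not tested. A match is a description of letters and was not tested as a binding site.

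The 130 bases before the start site are given here for the subunit and inhibitor genes with a match in that window, and for Casp4, which has one and was lower. Capitals mark the kappa-B matches, and overlapping matches on both strands run together. The genes were picked for display with their values known.
Nfkb2 promoter (GRCm38.p6, chr19:46304607-46304736, plus strand): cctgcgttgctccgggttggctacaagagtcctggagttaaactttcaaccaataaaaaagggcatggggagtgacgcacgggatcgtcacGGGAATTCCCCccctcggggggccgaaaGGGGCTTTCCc
Rel promoter (GRCm38.p6, chr11:23770970-23771099, minus strand): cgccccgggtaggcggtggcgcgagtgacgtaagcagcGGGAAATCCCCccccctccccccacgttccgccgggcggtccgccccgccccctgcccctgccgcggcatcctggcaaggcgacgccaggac
Nfkbia promoter (GRCm38.p6, chr12:55492648-55492777, minus strand): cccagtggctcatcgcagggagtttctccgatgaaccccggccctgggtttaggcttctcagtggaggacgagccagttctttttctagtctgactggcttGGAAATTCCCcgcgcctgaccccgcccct
Nfkbie promoter (GRCm38.p6, chr17:45555570-45555699, plus strand): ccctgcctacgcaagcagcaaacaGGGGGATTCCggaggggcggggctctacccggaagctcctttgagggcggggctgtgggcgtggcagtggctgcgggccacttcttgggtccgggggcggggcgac
Tnfaip3 promoter (GRCm38.p6, chr10:19015411-19015540, minus strand): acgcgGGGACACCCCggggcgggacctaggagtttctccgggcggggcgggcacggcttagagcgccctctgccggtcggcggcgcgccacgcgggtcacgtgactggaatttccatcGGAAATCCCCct
Casp4 promoter (GRCm38.p6, chr9:5308719-5308848, plus strand): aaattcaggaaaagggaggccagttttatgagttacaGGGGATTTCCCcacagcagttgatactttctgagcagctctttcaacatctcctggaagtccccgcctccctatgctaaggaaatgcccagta

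In Nfkb2 the matches begin at positions -39, -38 and -11 from the start site shown, in Nfkbia at -29, and in Nfkbie at -106. Tnfaip3 has matches at -125 and -12, Rel at -92 and -91, and Casp4 at -93 and -92, or at -104 and -103 of its other start site. Nfkb2, Nfkbia, Nfkbie and Tnfaip3 are among the 9 genes that stood apart in myeloid replicate 2. Rel is not, with 13.4 CPM there against 10.4 and 12.2 CPM in myeloid replicates 3 and 4. Nor is Casp4 (35.7 CPM against 34.4 and 24.5 CPM). The matched genes Tlr2 and Nlrp3, not shown here, are not among the 9 either, and Il6 and Tlr3 had too few counts. Irak3 and Il1rn of the 9 had no match, and the promoters of Relb, Nfkbiz and Nos2 were not used. A link between matches and these values was not tested.

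Genes that act with the 46 were taken from 6 lists of other pathway members. Of 123 such genes 108 were tested, of which 19 were higher and 30 were lower in pro-lymphoid culture, against 17.4% and 21.3% of all tested genes. Without lymphoid replicate 5 or 6 or myeloid replicate 4 the number higher was 12, 11 and 12. Their median log2 fold change was -0.07.

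Of 13 tested genes for TLR trafficking, adaptors and accessory proteins, 2 were higher and 3 were lower. Leaving out any one of the libraries except lymphoid replicate 1 and myeloid replicate 2 left 1 of them lower, and 4 were higher without myeloid replicate 3. Cd180, which encodes a TLR-like receptor of B cells, was higher at 124 ± 8.44 CPM in pro-lymphoid and 39.9 ± 9.38 CPM in pro-myeloid culture (SD, n = 3 each; log2 fold change 1.64 ± 0.18, SE, edgeR adjusted p = 0.000542). Lbp, whose product carries LPS to CD14, was lower at 8.04 ± 6.92 CPM in pro-lymphoid and 188 ± 71.04 CPM in pro-myeloid culture (SD, n = 3 each; log2 fold change -4.55 ± 0.64, SE, edgeR adjusted p = 0.00172). Tlr12, a TLR gene of the mouse that is not among the 46, was higher. It had 381 counts in pro-lymphoid against 1 in pro-myeloid culture, a ratio of 382 with an exact 95% counting interval of 68.1 to 15117 (edgeR adjusted p = 0.00807). Tirap, the bridging adaptor between TLR4 and MyD88, was lower (log2 fold change -0.77 ± 0.23, SE, edgeR adjusted p = 0.0366), a call that was lost without myeloid replicate 2 (edgeR adjusted p = 0.0571). Unc93b1, which carries endosomal TLRs, had no call at 582 ± 116 CPM in pro-lymphoid and 411 ± 125 CPM in pro-myeloid culture (SD, n = 3 each).

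Among 36 kinases and ubiquitin regulators of NF-kB, 6 were higher and 7 were lower. Only 2 of them, Traf1 and Peli1, were higher when lymphoid replicate 5, lymphoid replicate 6 or myeloid replicate 4 was dropped, and 3 without myeloid replicate 3. The number lower was 4 without lymphoid replicate 1 and 3 without lymphoid replicate 6 or myeloid replicate 3. Ripk1, which encodes a kinase upstream of the IkB kinases, was lower (log2 fold change -0.96 ± 0.14, SE, edgeR adjusted p = 0.00177). So was Card9, which encodes an adaptor of fungal sensing (log2 fold change -0.97 ± 0.17, SE, edgeR adjusted p = 0.00465). Peli2, which encodes a ubiquitin ligase of the IRAK step, had 4 counts in all pro-lymphoid libraries against 2539 in the pro-myeloid ones (edgeR adjusted p = 6.37e-06). The IkB kinase gene Ikbkb had no call, at 112 ± 8.38 CPM in pro-lymphoid and 102 ± 10.2 CPM in pro-myeloid culture (SD, n = 3 each). Map3k14, which encodes the kinase NIK of the alternative pathway, had none either (log2 fold change -0.53 ± 0.18, SE, edgeR adjusted p = 0.0554).

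Inflammasome partners were lower for 6 and higher for 3 of 18 tested genes. Gsdmd, which encodes the pore protein of pyroptosis, was lower at 28.5 ± 11.3 CPM in pro-lymphoid and 85.97 ± 12.1 CPM in pro-myeloid culture (SD, n = 3 each; log2 fold change -1.59 ± 0.27, SE, edgeR adjusted p = 0.00376). Naip2, whose product recognises bacterial secretion proteins for NLRC4, had 30.7 ± 6.87 CPM in pro-lymphoid and 117 ± 4.27 CPM in pro-myeloid culture (SD, n = 3 each; log2 fold change -1.92 ± 0.17, SE, edgeR adjusted p = 0.000231). Reads of the closely related Naip genes may have been split among copies. Nlrx1, a mitochondrial NOD-like receptor gene, was lower (log2 fold change -1.56 ± 0.16, SE, edgeR adjusted p = 0.000483), and Panx1, a membrane channel gene, was higher (log2 fold change 1.58 ± 0.18, SE, edgeR adjusted p = 0.000722).

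For 13 genes of the IL-1 family and the receptors of IL-1, IL-18, IL-6 and IL-10, 3 were higher and 5 were lower. Il36g, an IL-1 family cytokine gene, was lower, at 0.555 ± 0.3004 CPM in pro-lymphoid and 38.1 ± 34.1 CPM in pro-myeloid culture (SD, n = 3 each; log2 fold change -6.12 ± 0.83, SE, edgeR adjusted p = 0.00145), with a log2 fold change of -5.08 without myeloid replicate 2, where it was highest. Il1rl1, the IL-33 receptor gene, had 109 counts in pro-lymphoid against 1 in pro-myeloid culture, a ratio of 109 with an exact 95% counting interval of 19.2 to 4353 (edgeR adjusted p = 0.00343). The accessory receptor gene Il1rap was lower (log2 fold change -0.99 ± 0.17, SE, edgeR adjusted p = 0.00341). Il1r1, the signalling IL-1 receptor gene, had no call with all libraries (log2 fold change -1.21 ± 0.47, SE, edgeR adjusted p = 0.0775) and was lower without myeloid replicate 2 (edgeR adjusted p = 0.0194).

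In cytosolic nucleic acid sensing, 1 of 12 genes was higher (2 without myeloid replicate 3) and 4 were lower. Rigi, which encodes an RNA sensor, was lower (log2 fold change -2.30 ± 0.35, SE, edgeR adjusted p = 0.00225). Zbp1, which encodes a sensor of left-handed nucleic acids, was lower too (log2 fold change -4.65 ± 0.52, SE, edgeR adjusted p = 0.000632). Ifi203, an interferon-induced gene of the AIM2 family, was higher at 51.6 ± 10.1 CPM in pro-lymphoid and 2.35 ± 1.16 CPM in pro-myeloid culture (SD, n = 3 each; log2 fold change 4.48 ± 0.38, SE, edgeR adjusted p = 0.000206). Cgas, which encodes the DNA sensor upstream of STING, had no call (log2 fold change 0.50 ± 0.18, SE, edgeR adjusted p = 0.0625).

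Of 16 tested further inflammatory targets of NF-kB, 4 were higher and 5 were lower. The number higher rested on single libraries. Without myeloid replicate 2 it was 9 of 17 tested (Tnf, Ptgs2, Cxcl10, Ccl3, Ccl4, Ccl5, Il12a, Cd40 and Plau), with 5 lower, and it was 2 (Ccl5 and Il12a) when lymphoid replicate 5, lymphoid replicate 6, myeloid replicate 3 or myeloid replicate 4 was dropped. Tnf, which encodes tumour necrosis factor, had 93.6, 78.1 and 53.4 CPM in pro-lymphoid, against 43.2, 12.7 and 11.7 CPM in pro-myeloid libraries. It was higher in every pro-lymphoid library than in any pro-myeloid one (log2 fold change 1.74 ± 0.52, SE, edgeR adjusted p = 0.0331), and without myeloid replicate 2 the log2 fold change was 2.62 (edgeR adjusted p = 0.000445). Ccl5, a chemokine gene, was higher at 7.02 ± 4.68 CPM in pro-lymphoid and 0.255 ± 0.179 CPM in pro-myeloid culture (SD, n = 3 each; log2 fold change 4.81 ± 0.74, SE, edgeR adjusted p = 0.00249). Saa3, which encodes an acute-phase protein, was lower at 3.38 ± 1.81 CPM in pro-lymphoid and 264 ± 275 CPM in pro-myeloid culture (SD, n = 3 each; log2 fold change -6.27 ± 0.97, SE, edgeR adjusted p = 0.00251). It too was highest in myeloid replicate 2, and its log2 fold change was -4.98 without that library. Lcn2, which encodes an iron-scavenging protein of neutrophil granules, was lower at 2.67 ± 2.79 CPM in pro-lymphoid and 182 ± 61.6 CPM in pro-myeloid culture (SD, n = 3 each; log2 fold change -6.11 ± 0.69, SE, edgeR adjusted p = 0.000671). Of the 108 tested pathway genes 15 were at least 2-fold above both other pro-myeloid libraries in myeloid replicate 2 and 7 were at least 2-fold below both. One of the 15, chosen here after its values were seen, was Tnip3, which encodes an A20-binding inhibitor of NF-kB. It had 58.1, 41.7 and 39.8 CPM in lymphoid replicates 1, 5 and 6, against 43.6, 0.266 and 0.130 CPM in myeloid replicates 2, 3 and 4.

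**Figure D4:**
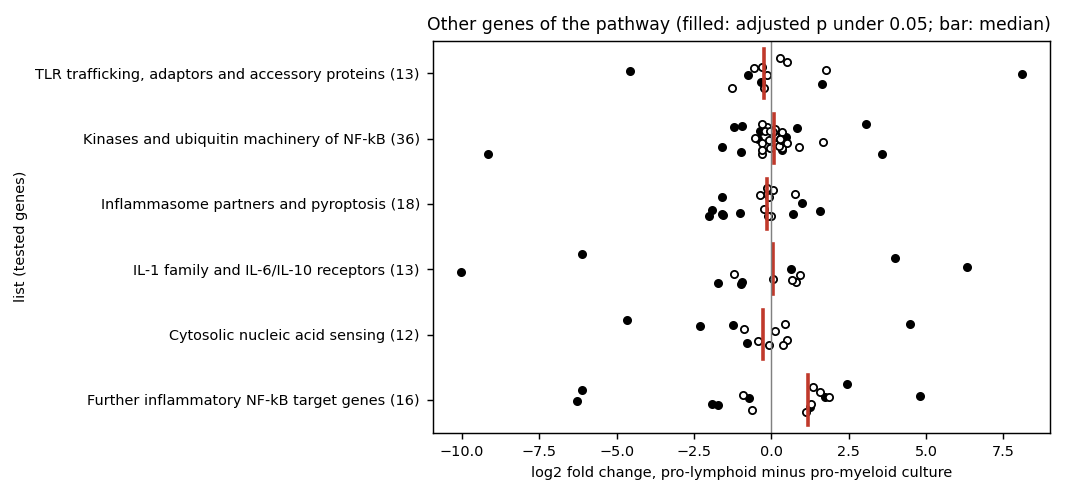
Log2 fold changes (x axis, pro-lymphoid minus pro-myeloid culture) of the 108 tested genes of 6 other pathway lists (y axis, with the number tested), each point being 1 gene, filled where the edgeR adjusted p was under 0.05, with a bar at each list's median. Called genes lie on both sides in all 6 lists, 19 to the right and 30 to the left; fitted values of genes with 0 to 3 counts in a culture are no measured fold.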

How the data were processed

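RNA of 6 libraries was measured, 3 from pro-lymphoid and 3 from pro-myeloid culture of MLL-AF9 transformed mouse HSPCs, grouped by their labels. Trizol extraction, poly(A) selection, NEBNext Ultra library preparation (a kit that leaves reads unstranded) and single-end HiSeq sequencing are stated per the labels' protocols. Read counts per gene, not normalized, were deposited as 1 table. Counting was done with featureCounts 1.5.1 on primary alignments over UCSC mm10 exons, ignoring strand, per the file headers. Trimmomatic, Bowtie, TopHat and DESeq2 are also named in the submitters' processing notes, without settings in the sources at hand. Reads of near-identical genes, such as the Naip genes, and of overlapping genes cannot be assigned with certainty. Irak1, Nfkb2 and Nfkbia share few exon bases with other genes (79, 4 and 15), and Il1a shares 222 with an antisense gene. The gene lengths of the same table were used for RPKM. No column of another sample was present.

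From the deposited counts, CPM and RPKM were computed with TMM-scaled library sizes. Genes were filtered with filterByExpr and tested two-sided with edgeR 4.0.16 (R 4.3.3), in a quasi-likelihood fit over all 12477 remaining genes, with Benjamini-Hochberg adjustment and calls at 0.05. The SE was derived from the F statistic. Ratios with 1 to 3 counts in a group have exact 95% counting intervals, and folds against 0 counts use a floor of 3 counts over the group. The libraries had no molecular identifiers and their reads can be copies of 1 molecule, so these cover counting error only. The procedure was tested on simulated data.

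The 46 genes, the pathway and marker lists and the tests were chosen with earlier results of these data known. Several versions of the quasi-likelihood fit were run, and the one used, edgeR's current version, was taken after their numbers of called genes were seen, since it gave the same number as the earlier processing. The older version is given as an alternative. Genes were named by a rule: all 46 are accounted for, the called and the best-known ones in full, and of each pathway list the 3 tested genes of lowest adjusted p, plus a panel of 8 (Unc93b1, Tirap, Ikbkb, Map3k14, Gsdmd, Il1r1, Cgas and Tnf). Cgas and Il36g were found under older symbols after the table was seen. Single marker genes, the monocyte and macrophage sum without Ly6c2 and other pathway genes in brackets were picked after their values were seen. Promoter sequences are from RefSeq (GRCm38.p6), and the display window, the patterns searched and the attention to myeloid replicate 2 were chosen with values known. Alternatives were RLE (DESeq2 size factors), upper-quartile or no scaling, no filter or 1 CPM in 3 libraries, DESeq2 1.42.0, limma-voom (limma 3.58.1), a minimum absolute log2 fold change of 1, and each library left out.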

Additional observations from a re-analysis of the deposited data

How the results depend on the processing

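All 16 called genes kept their calls with RLE, upper-quartile or no scaling, no filter, DESeq2, limma-voom, the older quasi-likelihood fit (added after the data were seen, 4665 genes called in all) and without myeloid replicate 2. The filter of 1 CPM in 3 libraries removes Tlr5, and a minimum absolute log2 fold change of 1 removes Irak4 and Nfkb1. With that minimum 2620 of all genes and 12 pathway genes as higher remained called, both by its construction. With each library left out in turn, 3086 to 5385 of all genes were called (3086 without lymphoid replicate 6). In the same fits, 2 to 12 of the 46 genes were higher (2 without lymphoid replicate 5 or myeloid replicate 4, 12 without myeloid replicate 2) and 10 to 14 were lower. Of the pathway genes, 11 to 26 were higher and 22 to 31 were lower. The ratio of mean total counts, 0.970 in pro-lymphoid over pro-myeloid libraries, ran from 0.914 to 1.06.

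Log2 fold changes that changed sign belonged to genes with no call in the fit of all libraries. With a library left out they ran from -0.53 to 0.17 for Tlr2, -0.63 to 0.14 for Tlr7, -0.24 to 0.31 for Ly96, -0.13 to 0.36 for Nlrc4, -0.041 to 0.22 for Pycard and -0.27 to 0.042 for Tmem173. The ranges were -0.42 to 0.45 for Il1b, -0.33 to 0.56 for Il1rn, -0.029 to 0.29 for Rel and -1.26 to 3.72 for Nos2. Upper-quartile scaling gave 0.0095 for Ly96 and 0.032 for Il1rn, no scaling gave 0.012 for each, and limma-voom gave 0.12 for Il1rn and 1.48 for Nos2. The cause was not tested. No paired analysis was possible because the groups share no replicate number. Depth limits Il1a, Il6, Il10, Tlr3 and Tlr5, where a count of 0 allows up to 3 counts.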
